A study of Mus musculus with 12 samples.

Results

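The genes described here are Tgif1 and 9 partners of transforming growth factor beta (TGF-beta) signalling: the receptors Tgfbr1 and Tgfbr2, the signal carriers Smad2, Smad3 and Smad4, the inhibitor Smad7, and the corepressors Ski, Skil and Tgif2. They were taken by name from the gene rows of the deposited count files, and all 10 were found in each of the 12 libraries, among 20856 genes that could be joined over all files. Tgif1 was chosen by its exon reads, which were higher outside the spleen in these same libraries, so its difference from spleen is described here without a test; the 9 partners were chosen by their place in the pathway. All 10 passed the filter on low counts, which kept 11706 genes.

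TGF-beta binds a receptor pair in which TGFBR2 activates the kinase TGFBR1. That kinase phosphorylates SMAD2 and SMAD3, which join SMAD4 and enter the nucleus to set the activity of target genes. SMAD7 blocks the receptor, SKI and SKIL hold target genes silent until the signal arrives, and the homeodomain proteins TGIF1 and TGIF2 bind SMAD2 or SMAD3 and recruit histone deacetylases. In T cells TGF-beta induces Foxp3, the lineage factor of regulatory T cells (Treg), and favours their peripheral formation.

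The libraries were made from CD4+ Treg of DEREG mice (line 23.2Spar/Mmjax), a C57BL/6 strain whose transgene Tg(Foxp3-DTR/EGFP) lets Foxp3 regulatory sequences drive a diphtheria toxin receptor fused to EGFP. In every group the cells were live, CD45+, EGFP-positive and positive for the activation marker CD69, and every mouse had a ligated inferior vena cava, which lowers blood flow and models deep vein thrombosis. Spleen, thrombus and vein wall were taken on day 14. The labels number the libraries of each tissue as experiments 1 to 4. There was no group without ligation, and the spleens came from thrombotic mice as well. The age of the mice and the number of mice behind a library are not in the labels, so a p-value reflects how far these samples scatter, and that scatter may be partly technical.

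Tgif1 (ENSMUSG00000047407) lies on chromosome 17 from 70844205 to 70853546, minus strand, in GRCm38. RefSeq promoter windows in GRCm38.p6 were at hand for 6 of the 10 members, and the other members were not searched. Each window runs from 250 bases before to 50 bases after a start site, and 5 of these windows belong to alternative starts of Tgif1. Of these, 3 are printed because Tgif1 carries the largest difference between tissues among the members and because each holds a motif that bears on this pathway or on activated T cells. Capitals mark CAGACA, the Smad box, 201 bases before the most upstream start (chr17:70853483-70853782); TGACAG, the reverse complement of the TGIF core CTGTCA, 5 bases after a start (chr17:70851161-70851460); and AAAGGTCA, the element bound by Nr4a receptors, 239 bases before a start (chr17:70849741-70850040). All 3 are written 5′ to 3′ on the strand of the gene.
Tgif1, most upstream start: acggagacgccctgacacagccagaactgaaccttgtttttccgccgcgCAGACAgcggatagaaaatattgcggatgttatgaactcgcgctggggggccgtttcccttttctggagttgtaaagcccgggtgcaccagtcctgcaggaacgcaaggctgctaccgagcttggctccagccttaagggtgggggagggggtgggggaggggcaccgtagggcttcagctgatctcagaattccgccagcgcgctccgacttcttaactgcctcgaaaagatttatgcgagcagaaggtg
Tgif1, start with a TGIF core: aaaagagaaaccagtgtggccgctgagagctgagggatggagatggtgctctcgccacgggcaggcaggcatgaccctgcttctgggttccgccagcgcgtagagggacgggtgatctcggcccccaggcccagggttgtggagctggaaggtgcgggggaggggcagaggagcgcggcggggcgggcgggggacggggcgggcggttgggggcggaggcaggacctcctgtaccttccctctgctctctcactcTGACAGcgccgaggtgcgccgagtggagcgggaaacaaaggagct
Tgif1, start with an Nr4a element: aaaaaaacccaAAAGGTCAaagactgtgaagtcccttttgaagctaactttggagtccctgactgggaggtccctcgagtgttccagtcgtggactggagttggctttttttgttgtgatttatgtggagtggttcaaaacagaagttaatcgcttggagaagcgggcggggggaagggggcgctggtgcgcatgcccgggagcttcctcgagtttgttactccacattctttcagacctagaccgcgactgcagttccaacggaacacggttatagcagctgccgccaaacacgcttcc
Searched on both strands, the Smad box is found in 21% of the 32851 RefSeq windows of this length, the TGIF core in 19.2% and the Nr4a element in 1.51%. The other Tgif1 windows hold a Smad box as TGTCTG, 60 bases before its start, and a TGIF core as TGACAG, 38 bases after its start. The AP-1 letters TGANTCA, present in 7.81% of windows, and the cAMP response element TGACGTCA, in 1.79%, are not in any of the 11 member windows searched. A Smad box also stands 203 bases before a Tgfbr1 start (chr4:47385966-47386265). These matches describe letters in the windows; binding was not measured.

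Total exon reads ranged from 9719151 to 55386086 per library, and 13.6% to 21.8% of them had more than 1 match in the genome. By layout and gene models the files form 3 sets: spleen 1 with thrombus 1 (set 1), spleen 2, thrombus 2 and vein wall 1 (set 2), and the other 7 libraries (set 3). Spleen 3 and 4, and vein wall 3 and 4, differed far less than the other 16 pairs of one tissue (mean chi-square per gene 3.96 and 2.57, against 96.8 to 355). Each of these pairs was summed and counted as 1 sample, so that spleen and vein wall have 3 samples each and thrombus has 4. The sort markers Foxp3, Cd4, Ptprc (CD45) and Cd69 were present in all 10 samples, with Foxp3 at 275 to 706 CPM (counts per mega-count: exon reads of a gene relative to the TMM-scaled library total). Cd69 was not level between tissues, with 240 to 347 CPM in spleen, 406 to 818 in thrombus and 637 to 878 in vein wall. Cd4 had 118 to 157, 88.1 to 347 and 74.6 to 111 CPM, and the ranges of Foxp3 and Ptprc overlapped. Whether the Cd69 difference bears on that of Tgif1 was not tested. In bulk RNA, fewer cells expressing a gene and less RNA of it per cell cannot be told apart.

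The mean level of Tgif1 was 5.07 times that of spleen in the thrombus and 6.04 times in the vein wall. In spleen it stood at 96.8, 101 and 76.4 CPM in samples 1, 2 and 3-4. The 4 thrombus samples had 435, 452, 494 and 471 CPM, and vein wall 1, 2 and 3-4 had 599.8, 593 and 461 CPM. The lowest sample outside the spleen had 4.32 times the level of the highest spleen sample, and the groups did not overlap. Behind these values stand 1380 to 4249 exon reads per spleen library and 4666 to 11038 per library of the other tissues, every one of them with a single match. The spleen mean was 91.3 ± 13.04 CPM (SD, n = 3), the thrombus mean 463 ± 25.3 (n = 4) and the vein wall mean 551 ± 78.2 (n = 3). As log2 fold changes against spleen, edgeR gave 2.34 ± 0.31 (SE) for thrombus and 2.59 ± 0.32 for vein wall.

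**Figure D1:**
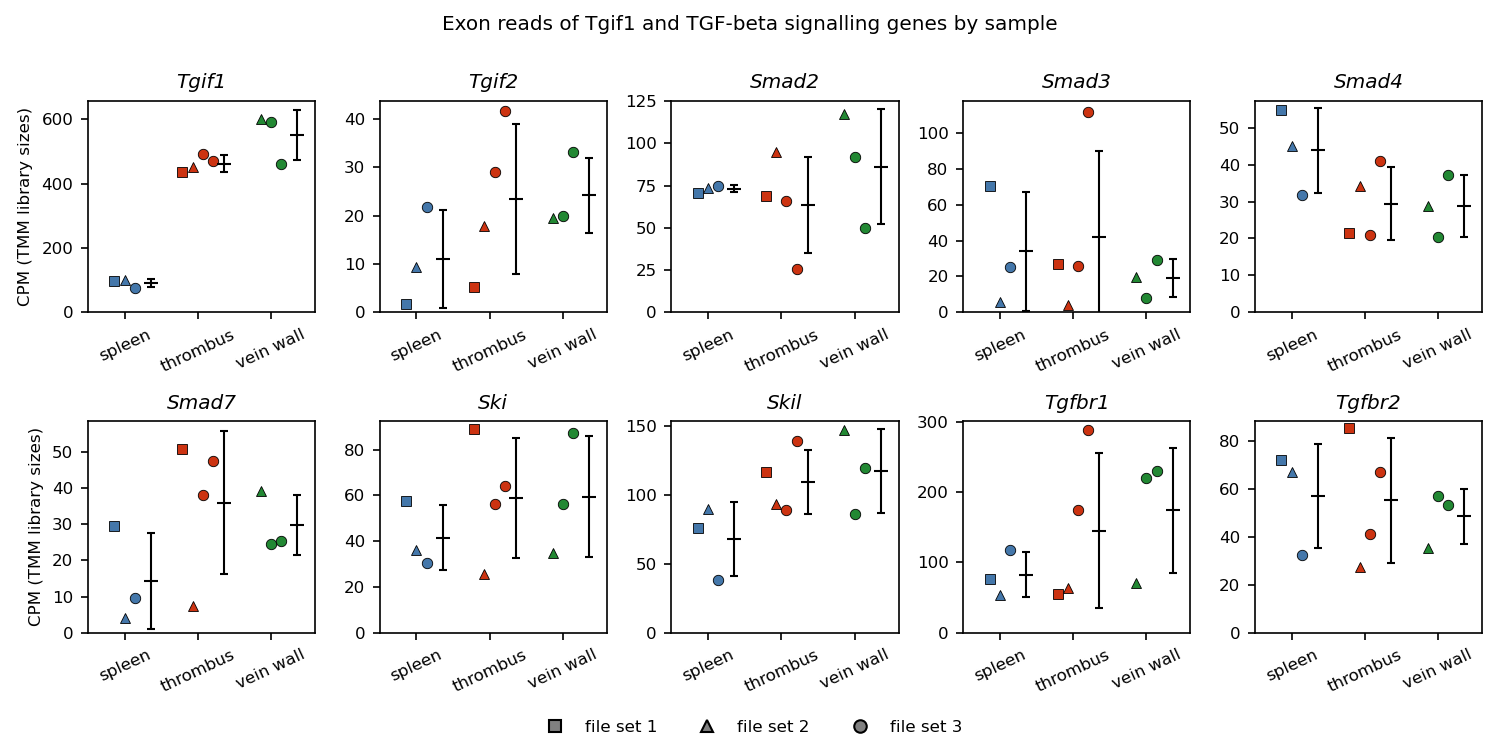
Exon reads as CPM (TMM library sizes) of the 10 genes in each sample, by tissue, with the mean and SD (black) beside the points and the file set as the point shape; each panel has its own axis from 0, and SD bars that pass below 0 are cut there. Tgif1 is the member whose spleen samples (76.4 to 101 CPM) lie below all others (435 to 599.8 CPM), while the tissues overlap in the other 9 panels.

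The Tgif1 difference was of like size in each set of files. Thrombus minus spleen was 2.17 on the log2 CPM scale in set 1, 2.16 in set 2 and 2.66 in set 3. Vein wall minus spleen was 2.57 in set 2 and 2.77 in set 3; set 1 has no vein wall library. With the file set as a covariate the log2 fold changes were 2.37 ± 0.23 and 2.62 ± 0.26 (SE).

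Intron reads of Tgif1, a readout of unspliced RNA from the same libraries, were less evenly separated. They amounted to 18.6, 2.52 and 8.67 CPM in spleen 1, 2 and 3-4, to 11.9, 13.8, 63.9 and 34.7 CPM in thrombus 1 to 4, and to 18.0, 38.9 and 44.2 CPM in vein wall 1, 2 and 3-4. Spleen 1 exceeded thrombus 1, thrombus 2 and vein wall 1, so the tissues overlapped here although exon reads did not. This overlap rests on spleen 1: within file set 1 it lay above thrombus 1, while within sets 2 and 3 the spleen sample was the lowest. As a share of all Tgif1 gene reads, introns made up 2.44% to 16.1% in spleen, 2.67% to 11.5% in thrombus and 2.91% to 8.76% in vein wall. Reads that cross an exon-exon junction were 5.33% to 7.82% of Tgif1 exon reads over all samples, so no tissue stood apart in this splicing measure.

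Tgif1 was chosen for its exon reads outside the spleen, so the thrombus and vein wall values entered that choice. A test between these tissues is therefore not independent of the choice. With that limit, the difference between thrombus and vein wall was tested. It was -0.25 ± 0.28 on the log2 scale (thrombus against vein wall; SE; edgeR, adjusted p = 0.9996), with an interval of 2 SE on either side from -0.82 to 0.31. The within-set differences were -0.41 in set 2 and -0.12 in set 3, and vein wall 3-4, at 461 CPM, lay among the thrombus samples. In this comparison 0% of the 11706 genes passed an adjusted p of 0.05, and 2.91% (341 genes) had an unadjusted p under 0.05 (4.19% with the file set as covariate). DESeq2 called 10 genes, none of them a member.

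Of the 10 members, 1 was called against spleen in thrombus and 1 in vein wall, in both cases Tgif1. Over all genes tested the called share was 0.145% in thrombus (17 higher, 0 lower) and 0.111% in vein wall (13 higher, 0 lower). Since Tgif1 was chosen for this contrast, nothing is read from that count. None of the other 9 was called in any of the 3 comparisons, and none of them had groups that did not overlap. Groups lay fully apart in 2.49% of all genes upwards and 2.49% downwards in thrombus against spleen, in 6.77% and 6.48% in vein wall against spleen, and in 2.36% and 1.48% in thrombus against vein wall. None of the 9 had an unadjusted p under 0.05 with tissue alone either, a level that 4.13% of all genes reached in thrombus and 5.46% in vein wall. Over the 9 partners, without Tgif1, the median log2 fold change against spleen was 0.50 in thrombus, where 6 of 9 lay above 0, beside a median of 0.03 and 52.2% above 0 over all genes tested. In vein wall it was 0.52, again with 6 of 9 above 0, beside -0.01 and 49.0% over all genes. The thrombus and vein wall comparisons share the spleen samples, so these values are not independent of each other.

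**Figure D2:**
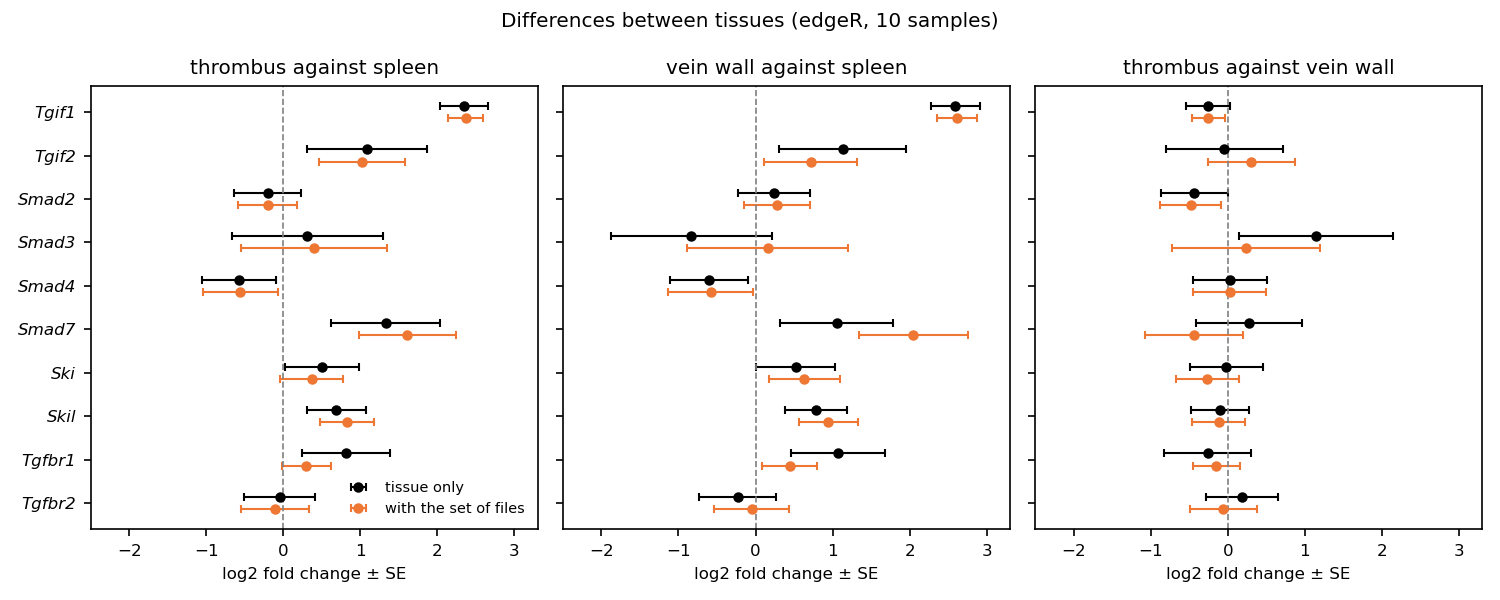
Log2 fold change ± SE (x axis) of each member in the 3 tissue comparisons, from edgeR on 10 samples with tissue as the single factor (black) or with the file set added (orange). Tgif1 lies at 2.34 and 2.59 against spleen with tissue alone, and its thrombus against vein wall value is -0.25; the 9 others have wider errors and none of them passed the test.

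Both receptor genes were expressed in all samples, and neither was called. Tgfbr1 (chromosome 4, 47353222 to 47414931, plus strand), the type I kinase, had 76.6, 53.5 and 118 CPM in spleen, 54.6, 63.1, 174 and 288 CPM in thrombus 1 to 4, and 70.9, 219.8 and 230.2 CPM in vein wall. Its high values, 118 CPM or more, were those of the set 3 samples in every tissue. Against spleen the log2 fold change was 0.81 ± 0.57 for thrombus and 1.07 ± 0.61 for vein wall with tissue alone (adjusted p = 0.9998 and 0.938, edgeR). Adding the file set as covariate gave 0.30 ± 0.32 and 0.45 ± 0.36 (adjusted p = 0.996 and 0.825). In the 3 set 2 libraries 40.5% to 48.5% of Tgfbr1 exon reads had a single match, against at least 99.88% elsewhere; on single-match reads these libraries had 25.9, 25.6 and 32.5 CPM. Tgfbr2 (chromosome 9, 116084293 to 116175360, minus strand), the ligand-binding type II receptor, had 72.1, 67.2 and 32.3 CPM in spleen, 85.5, 27.2, 41.4 and 67.2 in thrombus and 35.5, 57.0 and 53.5 in vein wall. Its means were close, at 57.2 ± 21.7, 55.3 ± 26.1 and 48.7 ± 11.5 CPM (SD). The interval of 2 SE around its log2 fold change ran from -0.98 to 0.88 in thrombus and from -1.23 to 0.76 in vein wall. Its within-set differences pointed both ways: thrombus minus spleen was 0.25, -1.30 and 0.70 in sets 1, 2 and 3.

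Smad2, Smad3 and Smad4, which carry the signal to the nucleus, did not pass in any comparison. Smad2 was even in spleen, with 70.8, 73.9 and 74.9 CPM, and spread more widely elsewhere, with 68.6, 94.6, 65.9 and 25.8 CPM in thrombus and 117, 91.7 and 49.8 CPM in vein wall. Thrombus 4 was the lowest, and in that library 53.0% of the Smad2 gene reads lay in introns, against 3.89% to 25.4% in the other 9 samples. Smad2 had a log2 fold change of -0.20 ± 0.43 in thrombus and 0.24 ± 0.47 in vein wall (adjusted p = 0.9998 and 0.980, edgeR). Junction reads made up 18.8% to 27.2% of Smad2 exon reads, more than for the other members in each sample except Tgif2 in spleen 1 (53.9% of 26 reads).

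Smad3 (chromosome 9, 63646767 to 63757994, minus strand), the other receptor-activated Smad, was the least even member. It had 70.5, 5.90 and 25.5 CPM in spleen, 26.8, 3.97, 25.8 and 112 CPM in thrombus and 19.8, 8.06 and 29.1 CPM in vein wall. The highest and the lowest sample were both from thrombus, 28.2 times apart. Its junction reads were 0% to 2.14% of exon reads and 0% in all 4 thrombus samples, and introns held 20.5% to 71.3% of its gene reads. Low junction shares were not particular to Smad3: Smad7 had 0% to 2.5%, Ski 0% to 2.26%, Tgfbr2 0.326% to 3.90% and Skil 1.30% to 5.11%. The median share over all genes tested was 9.1% to 17.7% per sample. Its log2 fold change was 0.31 ± 0.98 in thrombus and -0.83 ± 1.05 in vein wall, and the sign in vein wall turned to 0.16 ± 1.04 once the file set was a covariate. At this spread neither direction nor size could be resolved.

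Smad4, the shared partner of the activated Smads, had 54.8, 45.1 and 31.7 CPM in spleen, 21.5, 34.3, 20.9 and 41.0 CPM in thrombus and 28.7, 20.5 and 37.3 CPM in vein wall. The means were 43.9 ± 11.6, 29.4 ± 9.85 and 28.9 ± 8.40 CPM (SD). All 5 within-set differences from spleen were below 0, from -1.34 (thrombus, set 1) to -0.12 (thrombus, set 3). The log2 fold changes of -0.58 ± 0.47 and -0.60 ± 0.51 did not pass (adjusted p = 0.9998 and 0.962, edgeR). Thrombus 4 also stood apart here, with 77.2% of the Smad4 gene reads in introns, and with all gene reads the thrombus value turned to 0.21.

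Smad7, the inhibitory Smad that TGF-beta itself induces, was higher on average outside the spleen, without passing the test. Its values were 29.5, 3.91 and 9.72 CPM in spleen, 51.0, 7.38, 38.1 and 47.6 CPM in thrombus, and 39.3, 24.6 and 25.3 CPM in vein wall. Junction reads made up 0% to 2.5% of Smad7 exon reads and introns 9.88% to 50.6% of its gene reads, so few of its reads mark spliced RNA. Within each set of files the spleen sample was the lowest: thrombus minus spleen was 0.79, 0.90 and 2.12 in sets 1, 2 and 3, and vein wall minus spleen was 3.301 in set 2 and 1.35 in set 3. Across sets the tissues overlapped, because spleen 1 exceeded thrombus 2 and both set 3 vein wall samples. edgeR gave log2 fold changes of 1.33 ± 0.71 for thrombus and 1.05 ± 0.74 for vein wall (adjusted p = 0.9998 and 0.961). Both values rest on the spleen samples: they were 2.39 and 2.12 without spleen 1, and 0.90 and 0.64 without spleen 2. With the file set as covariate they were 1.61 ± 0.63 and 2.05 ± 0.71, still without passing (adjusted p = 0.565 and 0.393). The unadjusted p of Smad7 was then 0.0193 and 0.00986; in these fits 6.77% and 7.84% of all genes had an unadjusted p under 0.05.

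Skil and Ski encode the SNON and SKI corepressors, which bind the activated Smads at target genes. Skil (chromosome 3, 31095058 to 31122577, plus strand) had 75.8, 90.2 and 38.5 CPM in spleen, 117, 93.2, 89.1 and 139 CPM in thrombus, and 147, 86.4 and 119.8 CPM in vein wall. Spleen 2 exceeded thrombus 3 and vein wall 2, so the groups overlapped by a small margin. The 5 within-set differences from spleen were all above 0, from 0.05 (thrombus, set 2) to 1.53 (thrombus, set 3). Skil had log2 fold changes of 0.69 ± 0.38 in the thrombus comparison and 0.79 ± 0.40 in that of vein wall (adjusted p = 0.9998 and 0.916, edgeR). They came to 0.82 ± 0.35 and 0.94 ± 0.38 with the file set as covariate (adjusted p = 0.650 and 0.546; unadjusted p = 0.0292 and 0.0240, edgeR).

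Ski (chromosome 4, 155154075 to 155222592, minus strand) had 57.8, 36.3 and 30.5 CPM in spleen, 89.3, 25.6, 56.2 and 64.0 CPM in thrombus and 34.9, 56.3 and 87.4 CPM in vein wall. The lowest of all 10 samples was thrombus 2, below every spleen sample. Within set 2 both other tissues lay below spleen (-0.50 and -0.06), while in set 3 both lay above (0.97 and 1.198). For Ski the log2 fold change was 0.50 ± 0.48 and 0.52 ± 0.51 (adjusted p = 0.9998 and 0.962, edgeR), with intervals of 2 SE from -0.46 to 1.46 and from -0.50 to 1.54.

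Tgif2 (chromosome 2, 156840007 to 156855570, plus strand), the close relative of Tgif1, was not called. Exon reads of Tgif2 gave 1.82, 9.38 and 21.8 CPM in spleen, 5.26, 17.8, 29.1 and 41.7 CPM in thrombus and 19.5, 19.9 and 33.2 CPM in vein wall. These values overlap, and they rest mostly on reads with more than 1 match: 0.825% to 50% of Tgif2 exon reads per sample had a single match. On single-match reads the Tgif2 means of spleen, thrombus and vein wall were 1.17 ± 0.223, 2.06 ± 1.04 and 0.873 ± 0.565 CPM (SD), from 4 to 71 reads per library. Its vein wall log2 fold change was 1.13 ± 0.82 with all exon reads and -0.41 ± 1.55 with single-match reads, and neither passed. The loci that share these reads were not identified here. The listed relatives Tgif2lx1 and Tgif2lx2 had 0 reads in all 12 libraries, and the pseudogene Tgif2-ps1, listed in set 1 alone, had 0 exon reads there. The level of Tgif2 in these cells is therefore uncertain.

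**Figure D3:**
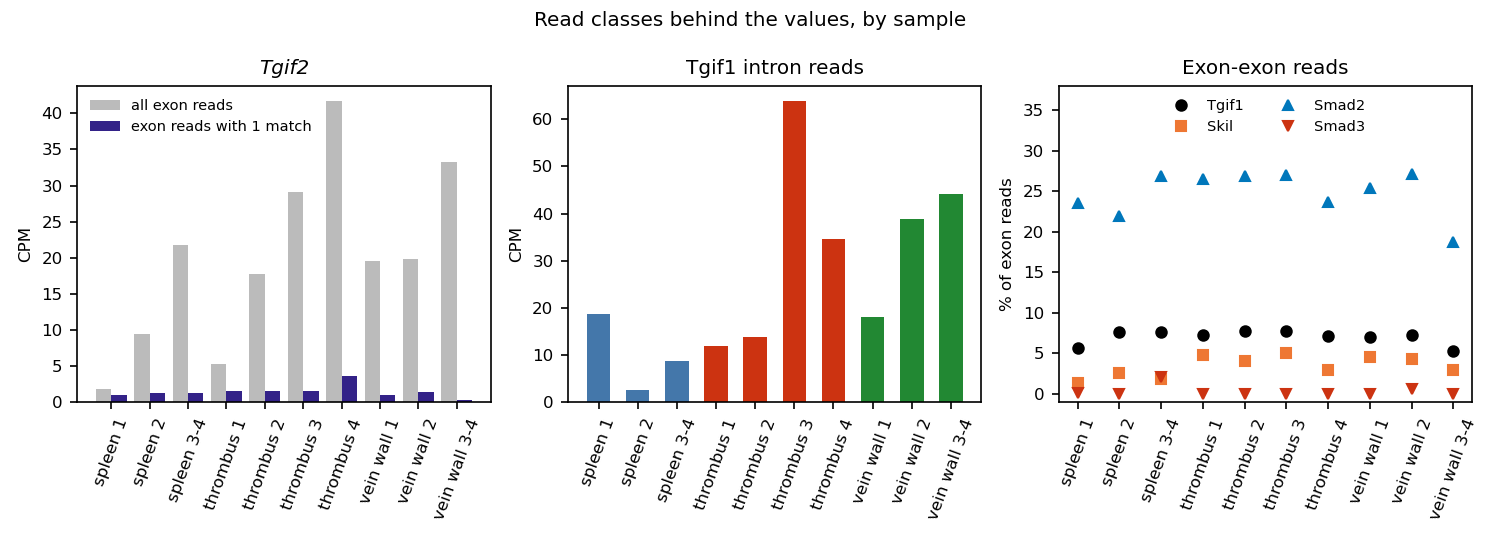
Read classes in each of the 10 samples: CPM of all and of single-match Tgif2 exon reads (left), CPM of Tgif1 intron reads coloured by tissue (middle), and exon-exon junction reads as a percent of exon reads for 4 members (right). Single-match reads of Tgif2 reach at most 3.62 CPM, Tgif1 intron reads overlap between tissues, and Smad2 has the highest junction share of the 4 throughout.

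Levels of different genes were compared per exon length, as RPKM (CPM divided by the exon length in kilobases), within set 3, where gene models are the same. In the spleen 3-4 sample Tgif1 (21.3 RPKM), Smad2 (21.1) and Tgfbr1 (18.3) stood close together, ahead of Smad4 (8.88), Tgif2 (6.91), Skil (5.72), Ski (5.53), Smad3 (4.85), Tgfbr2 (3.95) and Smad7 (2.22). In the set 3 thrombus samples Tgif1 had 131 and 138 RPKM, apart from all other members. Tgfbr1 followed at 36.02 RPKM and Skil at 17.0, and the 7 others had means from 6.63 (Tgfbr2) to 13.1 (Smad3). In the set 3 vein wall samples Tgif1 had 129 and 165 RPKM, followed by Tgfbr1 (35.1), Smad2 (19.9), Skil (15.3) and Ski (13.01), with Smad3 lowest at 3.54 RPKM. From Skil downwards neighbours in the thrombus order overlapped: Skil ranged from 13.3 to 20.8 RPKM and Smad3 from 4.92 to 21.3 RPKM. The place of Tgif2 rests on its reads with more than 1 match.

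Around the members, 10 lists of pathway genes held 139 further genes, of which 104 were tested. In each comparison with spleen 1 of these was called, the same gene in both, Gadd45b, and none was called lower or between thrombus and vein wall. Its 1 in 104 stands beside 0.145% and 0.111% of all genes. The median log2 fold change over the 104 was 0.03 in thrombus and -0.28 in vein wall. With the file set as covariate 4 were called higher in both comparisons (Junb, Cdkn1a, Bhlhe40 and Gadd45b), beside 0.427% and 0.384% of all genes called higher (0.453% and 0.41% in either direction, 0.0256% lower in each). All 4 belong to the list of genes known to respond to TGF-beta, and all 4 also respond to many other stimuli, including antigen receptor signals and stress. Without the members that list had 16 tested genes, 13 of them above 0 in thrombus (median log2 1.07) and 9 in vein wall (median 0.81). Over all genes tested 52.2% and 49.0% lay above 0, with medians of 0.03 and -0.01. The list gives no direction of response, so a gene above 0 is not thereby a gene that follows TGF-beta. Among its tested genes Id1, Ctgf, Tgfbi and Cdkn2b had tissue means of at most 2.75 CPM. The list was written with earlier results of these data known, so these values are a description and a response to TGF-beta was not tested.

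Gadd45b, a stress-induced gene that TGF-beta can raise through Smads, had spleen, thrombus and vein wall means of 110.7 ± 37.2, 488 ± 194 and 497 ± 112 CPM (SD; the same order of tissues holds for all means below). It rose by 2.14 ± 0.38 and 2.17 ± 0.40 on the log2 scale (adjusted p = 0.0196 and 0.0287, edgeR). Junb, an AP-1 subunit, had 532 ± 512, 1921 ± 856 and 1362 ± 103 CPM, and passed once the file set was a covariate (adjusted p = 0.000157 and 0.000430), not with tissue alone (0.591 and 0.868). Cdkn1a, the cell cycle inhibitor p21, followed the same course at lower counts, with 7.69 ± 6.14, 59.0 ± 49.98 and 31.1 ± 32.6 CPM (edgeR with the covariate, adjusted p = 0.00274 and 0.0432). Bhlhe40, a repressor induced on T cell activation, had 111 ± 85.1, 345 ± 108 and 244.5 ± 14.0 CPM (0.00199 and 0.0143 with the covariate). Other members of this list did not pass: Id2 had log2 fold changes of 1.18 ± 0.40 and 1.24 ± 0.42, Id3 of -0.94 ± 0.41 and -0.65 ± 0.45, and Foxp3 of -0.07 ± 0.34 and -0.43 ± 0.36.

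Upstream of the receptors, 4 of 13 ligand genes were tested and none was called. Tgfb1, the main ligand of lymphocytes, had 44.4 ± 31.4, 43.9 ± 43.6 and 20.4 ± 9.96 CPM, and Bmp7 had 35.9 ± 8.57, 23.1 ± 13.1 and 28.0 ± 15.98. Gdf11 had at most 7.22 CPM. Of the 13 genes that store or activate latent TGF-beta 9 were tested: Lrrc32, the GARP protein that holds latent TGF-beta on activated Treg, had 81.9 ± 35.5, 119 ± 68.3 and 97.4 ± 67.4 CPM. Nrros, its relative in myeloid cells, had 72.3 ± 29.6, 51.9 ± 22.6 and 33.7 ± 15.6 CPM, and the integrin chain gene Itgav 48.1 ± 33.3, 53.5 ± 24.8 and 43.6 ± 20.3. None of the 9 was called.

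Among 14 further receptors and co-receptors 9 were tested and none passed. Nrp1, a co-receptor abundant on thymic Treg, had 185 ± 103, 227 ± 66.6 and 196 ± 23.0 CPM. Bambi, a decoy receptor without a kinase, had 0.0388 to 4.00 CPM in spleen and means of 31.3 ± 21.4 and 40.2 ± 31.9 CPM in the other tissues. Its lowest values there, 10.1 and 4.12 CPM, still lay above every spleen sample, in vein wall by a small margin. Other named genes also lay fully apart from spleen, such as Ldlrad4 upwards and Ncor1 downwards. Over all genes this held for 2.49% and 6.77% upwards and 2.49% and 6.48% downwards in thrombus and vein wall. The Bambi log2 fold changes of 4.41 ± 1.45 and 4.77 ± 1.502 did not pass (edgeR adjusted p = 0.849 and 0.710, or 0.262 and 0.336 if the file set is added). Bmpr2, a type II receptor for bone morphogenetic proteins, had log2 fold changes of 1.11 ± 0.70 and 1.13 ± 0.74. Smad1 and Smad5, which carry those signals, had 0.84 ± 0.83 and -0.58 ± 0.66 in thrombus.

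All 20 modulators of receptors and Smads were tested and none passed. Ldlrad4, which binds Smad2 and Smad3 away from the receptor, came nearest with 43.8 ± 12.1, 122 ± 37.9 and 137 ± 12.7 CPM. Its log2 fold changes were 1.48 ± 0.38 and 1.64 ± 0.39 (edgeR adjusted p = 0.293 and 0.217; 0.0605 and 0.0861 if the file set is added). Stub1, a ubiquitin ligase, had -0.83 ± 0.36 and -0.64 ± 0.38, and the receptor-binding immunophilin gene Fkbp1a -0.24 ± 0.35 and -0.09 ± 0.38. The corepressor partners of TGIF1 and SKI were all 14 tested with none called: Hdac1 had 259 ± 56.2, 329 ± 58.5 and 291 ± 48.8 CPM, Sin3b 236 ± 59.3, 259 ± 147 and 275 ± 15.4 CPM, and Ncor1 257 ± 53.3, 147 ± 24.4 and 125 ± 41.3 CPM. The Ncor1 log2 fold changes were -0.80 ± 0.33 and -1.04 ± 0.36 (adjusted p = 0.9998 and 0.720, edgeR).

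Neither the Smad-binding cofactors (12 of 15 tested) nor the non-Smad arm (15 of 15) had a called gene. Crebbp, a histone acetyltransferase gene, had log2 fold changes of 0.24 ± 0.37 and 0.10 ± 0.40, the mediator subunit gene Med15 -0.23 ± 0.54 and -0.38 ± 0.58, and the Runx partner gene Cbfb -0.42 ± 0.42 and -0.39 ± 0.45. The cytoskeletal regulators Rhoa, Rock1 and Pak2 had 0.04 ± 0.30, -0.43 ± 0.35 and 0.62 ± 0.46 in thrombus. Of 16 relatives of Tgif1 in the TALE homeobox class 5 were tested. Meis3, Pknox1 and Pbx4 had -0.49 ± 0.48, 0.46 ± 0.64 and -0.25 ± 0.68 in thrombus, and none was called.

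**Figure D4:**
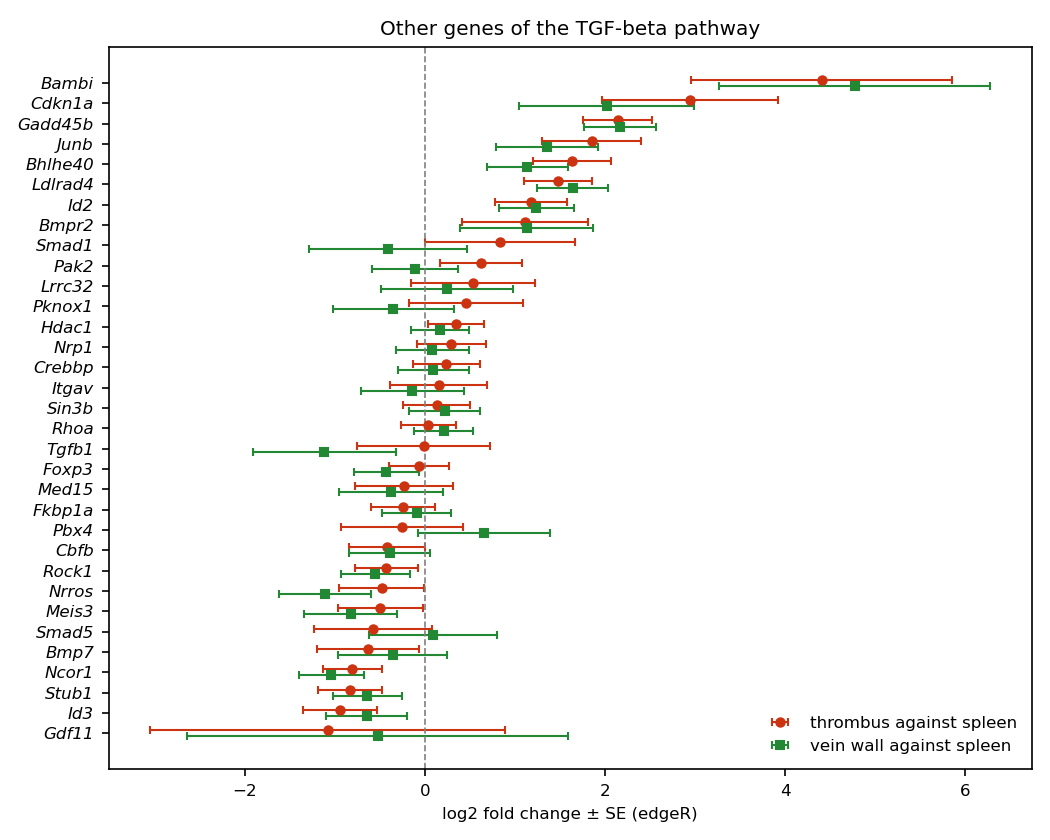
Log2 fold change ± SE (x axis, edgeR, tissue as the single factor) of the named pathway genes outside the member list, in thrombus (red circles) and vein wall (green squares) against spleen, ordered by the thrombus value. Gadd45b passed the test with tissue alone; Bambi has the largest estimates, 4.41 and 4.77, with standard errors of 1.45 and 1.502.

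The genes whose profile over the 10 samples lay nearest to that of Tgif1 were found by the root mean square (RMS) difference of log2 CPM, each gene centred on its own mean. The nearest was Hilpda, a lipid droplet protein gene, with an RMS of 0.29, where the median gene had 1.45. Then came Gadd45b (0.46), the cAMP-responsive modulator gene Crem (0.46), Rasgef1b (0.47), the kinase gene Sgk1 (0.48), the chemokine receptor gene Ccr2 (0.50), Ldlrad4 (0.51) and the chemokine receptor gene Ccr7 (0.51). Hilpda had 45.2 ± 8.35, 266 ± 79.1 and 283 ± 53.0 CPM. Crem had 85.8 ± 13.1, 469 ± 109 and 519 ± 314 CPM, and Sgk1 had 12.5 ± 6.08, 93.7 ± 17.1 and 109.5 ± 32.4 CPM. A gene picked in this way must differ between spleen and the other tissues, so no test of that is given. Ranked by Pearson's correlation, 2 of the 8 nearest genes stayed, Hilpda and Sgk1. Among the other members Skil came closest, at rank 101 with an RMS of 0.84, followed by Smad7 at rank 1166 with 1.09; Smad3 was the farthest at rank 8593 with 1.88.

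**Figure D5:**
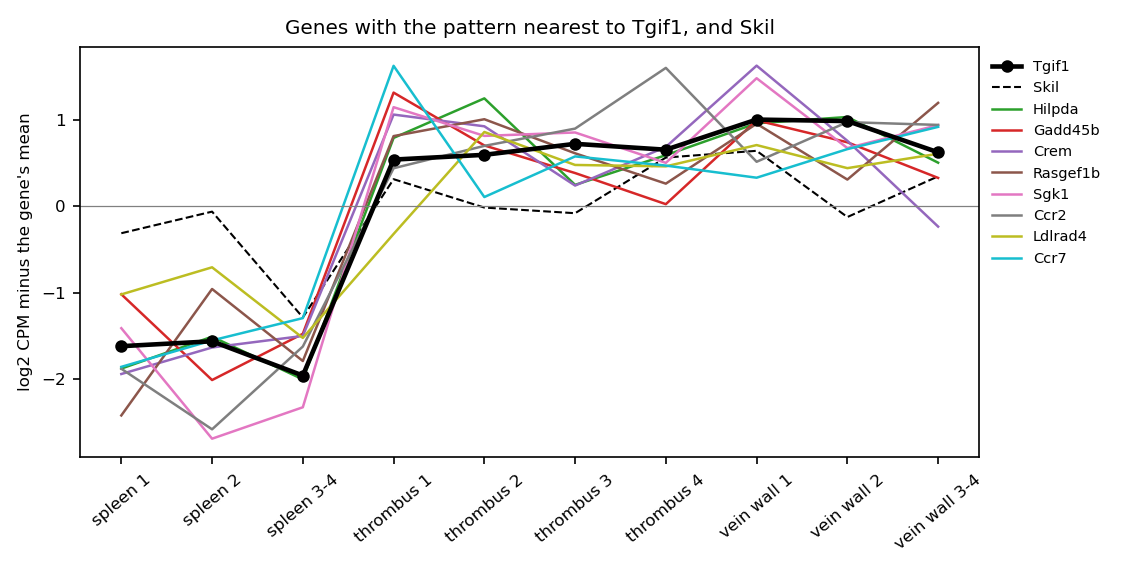
Profiles of Tgif1 (thick black), the 8 genes nearest to it and Skil (dashed), as log2 CPM minus the mean of each gene (y axis) over the 10 samples (x axis); lines join the values of a gene and imply no order of samples. All 8 lie below their mean in the 3 spleen samples and Hilpda follows Tgif1 with an RMS of 0.29, while Skil varies less between tissues.

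Markers of other cells moved in part with tissue. Summed over the dendritic cell list (9 genes, mainly Cd74 and the class II genes), the level was 1195 to 2350 CPM in spleen, 1734 to 11758 in thrombus and 2457 to 12743 in vein wall. The highest sums were those of thrombus 2 and vein wall 1, where Tgif1 had 452 CPM and, its highest value, 599.8 CPM. In thrombus 3, with the lowest sum of the thrombus samples, Tgif1 had 494 CPM. In thrombus 2 and vein wall 1 Itgax had 5.03 and 0 CPM, Flt3 7.38 and 3.99, Xcr1 0 and 0.76, and Zbtb46 1.06 and 2.91. Siglech had 75.9 and 12.7 CPM. Cd79a of the B cell list (518 and 725 CPM) and Lyz2 of the macrophage list (1349 and 237) were also highest in these samples. The dendritic cell sum therefore does not tell these cell types apart. The fibroblast list (9 genes) summed to 81.6 to 103 CPM in spleen, 101 to 207 in thrombus and 110 to 189 in vein wall, most of it Thy1, which T cells express too. Without Thy1 the other 8 genes summed to 0.0536 to 0.453 CPM in spleen, 8.46 to 47.6 in thrombus and 27.2 to 72.5 in vein wall, with no overlap with spleen. All 7 fibroblast genes tested lay above 0 in both comparisons with spleen, none of them called; Col1a2, Col3a1, Pdgfra and Fn1 were at 0 in every spleen sample. The pancreas list (9 genes) summed to 22.5 to 116, 20.6 to 404 and 48.1 to 212 CPM, and its member Try4 was called against spleen in both tissues. Most of the spleen sum was Cela1, with 20.5, 111 and 22.0 CPM in spleen 1, 2 and 3-4, so the sums hide a difference. Of the 9 genes 8 lay above 0 against spleen in each tissue, with a median log2 fold change of 7.05 in thrombus and 5.84 in vein wall. Platelet genes (6) summed to 1.18 to 4.00, 4.54 to 50.1 and 0 to 6.33 CPM, and erythroid genes (7) to 59.5 to 1815, 6.81 to 2043 and 2.47 to 50.8 CPM. B and plasma cell genes (8) summed to 252 to 513, 313 to 959 and 513 to 1387 CPM. Macrophage and monocyte genes (9) summed to 54.1 to 202, 49.2 to 1746 and 23.2 to 266 CPM, and CD8 T and NK cell genes (7) to 71.0 to 93.7, 39.5 to 284 and 70.2 to 179 CPM. Endothelial genes (7, Emcn at 0 throughout) summed to 24.1 to 56.6, 55.5 to 67.0 and 44.4 to 50.5 CPM. Most of each sum was Pecam1, with 23.2 to 52.5, 54.7 to 65.0 and 41.2 to 47.3 CPM, while Cdh5, Kdr, Vwf and Tek had at most 3.33 CPM. Smooth muscle and neutrophil genes (7 each) summed to at most 9.80 and 8.50 CPM. The part of these cells in the Tgif1 difference was not tested.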

How the data were processed

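Bulk RNA sequencing of sorted Treg was read from 12 deposited gene tables, 4 libraries per tissue. Per the labels' protocols, 2 ng of total RNA gave full-length cDNA in 12 cycles, and 1 ng of that entered Nextera XT libraries. These mark neither strand nor molecules, so antisense reads cannot be told apart and depth covers counting error only. Per the file headers, the authors deposited counts of total exon reads, single-match exon reads, intron reads, exon-exon reads and all gene reads, with the exon length of each gene. The genome build was GRCm38, per the submitters' processing notes. The sources used here name no aligner or counter. RPKM was not taken from the deposited column but recomputed from the counts and exon lengths.

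Sets 1 and 3 were joined on Ensembl ID, and set 2 by gene name, for 20737 genes by symbol and 119 through RefSeq synonyms (GRCm38.p6). Per library 92.3% to 96.3% of exon reads fell on joined genes. The test of counts used edgeR 4.0.16 (R 4.3.3): TMM scaling, default low-count filter, robust quasi-likelihood F test, tissue as the single factor, and Benjamini-Hochberg adjustment over 11706 genes, with a call at an adjusted p under 0.05. CPM uses TMM library sizes. The count test was tried on simulated data with 200 changed genes. Figures were drawn with matplotlib 3.10.9.

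Members, gene lists and tests were chosen with earlier results of these data known. Named are all 10 members, called genes of the pathway lists and up to 3 more per list by mean CPM, and the 8 genes nearest to Tgif1. Alternatives were the file set as covariate, 12 separate libraries, RLE size factors, DESeq2 1.42.0, no filter, single-match reads, all gene reads, a replicate block and leaving out each sample. Single-match reads with the covariate were added after seeing the data.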

Additional observations from a re-analysis of the deposited data

How the results depend on the processing

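Under every alternative run, none of the 9 partners of Tgif1 was called in any comparison, and Tgif1 was not called between thrombus and vein wall; its calls against spleen are not used as support, since it was chosen for that difference. The number of genes called in thrombus against spleen, 17 with tissue alone, was 53 with the file set as covariate, 49 with that covariate on single-match reads, 35 with 12 separate libraries, 105 with DESeq2, 80 without the filter and 9 with all gene reads; it was 6 to 34 with 1 sample left out, 34 without spleen 1, 6 without spleen 2 and 8 without spleen 3-4. In vein wall against spleen, 13 became 48, 36, 51, 119 and 66 under the first 5 of these and 7 with single-match reads; it was 5 to 28 with 1 sample left out, 28 without spleen 1, 5 without spleen 2 and 6 without spleen 3-4. Between thrombus and vein wall DESeq2 called 10 genes and the fit without the filter 2. The samples were not paired by the experiment numbers of the labels, since not every same-number correlation was above 0.1. For spleen and thrombus 1 to 4 the correlations were 0.4, 0.265, 0.158 and 0.0898. They were -0.0711 to 0.0529 for spleen and vein wall, and 0.0164, -0.0189, 0.185 and 0.191 for thrombus and vein wall. Such correlations cannot decide whether samples of one number belong together. The best match was the own number for 1 to 3 in spleen and thrombus and for 1 and 3 in thrombus and vein wall, and for none in spleen and vein wall. With the replicate block the counts were 32, 24 and 0.

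Among the log2 fold changes of uncalled members, signs turned as follows, and the cause was not tested. In thrombus against spleen, Tgfbr2 was 0.13 with 12 libraries, Smad3 -0.000104 and Smad4 0.21 with all gene reads, and Smad3 -0.058 with the replicate block. In vein wall against spleen, Smad3 was 0.16 with the covariate and 0.16 with it on single-match reads, where Tgif2 was -0.59, beside -0.41 on single-match reads alone. In thrombus against vein wall, Tgif2 was 0.30 with the covariate, 1.24 on single-match reads and 1.33 with both. Smad7 was -0.44, -0.45 with both and -0.12 with the replicate block. Tgfbr2 was -0.057 with the covariate and -0.063 with both, and Smad4 -0.050 with 12 libraries and -0.046 without the filter. With 1 sample left out, ranges that cross 0 in thrombus against spleen were -0.34 to 0.18 for Tgfbr2, -0.85 to 1.41 for Smad3 and -0.45 to 0.062 for Smad2. In vein wall against spleen they were -1.30 to 0.27 for Smad3 and -0.025 to 0.51 for Smad2. Without crossing 0, against spleen in thrombus and vein wall Smad7 ranged from 0.90 to 2.39 and 0.64 to 2.12, Tgif2 from 0.58 to 2.06 and 0.63 to 2.11 (lowest without spleen 1, highest without spleen 3-4), and Tgfbr1 from 0.24 (without thrombus 4) to 1.15 and 0.81 to 1.48. In thrombus against vein wall ranges across 0 were -0.48 to 0.29 for Tgif2, -0.84 to 0.013 for Tgfbr1, -0.10 to 0.40 for Tgfbr2, -0.17 to 0.26 for Smad4, -0.32 to 0.36 for Ski, -0.013 to 1.59 for Smad3 and -0.29 to 0.071 for Skil. Ranking by Pearson's correlation kept 2 of the 8 genes nearest to Tgif1. RPKM in place of CPM moved the log2 ratio of mean levels against spleen by at most 0.23 (Tgfbr2 in thrombus, from -0.05 to -0.28), in each case less than the SD of log2 CPM pooled over both tissues, although the spleen values of Smad2 went from 73.2 ± 2.11 CPM to 16.2 ± 7.46 RPKM. There were 3 or 4 samples a tissue and standard errors up to 1.05. Changes of the members other than Tgif1 below about 2 SE could not be resolved, and larger ones could also fail the adjusted test. Smad7 at 2.05 ± 0.71 in vein wall against spleen, with the covariate, had an adjusted p of 0.393 (edgeR). Being uncalled therefore sets no limit of 2 SE on the change of a member.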
